A study of Caenorhabditis elegans with 24 samples.

Results

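In whole adult *C. elegans*, 133 mRNAs were at least 2-fold more abundant among translated mRNA than among total mRNA in every condition that was sequenced. They are 133 of the 8360 genes that passed a minimum of 8 CPM, a read count normalized to library size, of the 45461 genes in the table. A gene was taken as a member when it averaged at least 8 CPM over the AL and DR libraries and when its mean log2(CPM + 0.5) in translated mRNA exceeded that in total mRNA by at least 1 in each of DR, DM and AL. The difference of these means is the log2 ratio given for each condition. All 133 members are annotated as protein coding.

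The worms, all kept with FUdR against progeny and at 20 °C, received their diet from day 1 of adulthood and were lysed on day 4. DR worms were wild type (N2) on diluted food, OP50 bacteria at log10 9 CFU. DM worms were *daf-2;rsks-1* double mutants, for which no alleles are named in the labels, on the undiluted diet of log10 11 CFU. AL worms were N2 on the undiluted diet. From each lysate, translated mRNA (TR) is the poly(A) RNA that sedimented with 2 or more ribosomes, and total mRNA (TO) is the poly(A) RNA of the unfractionated lysate. The 6 groups held 4 biological replicates each, and the 24 libraries held 7960544 to 15658505 reads on genes.

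The number of ribosomes that an mRNA carries depends on how often translation starts, how fast ribosomes move and how long the coding sequence is, because ribosomes need space. A long coding sequence holds more ribosomes than a short one at the same spacing. Polysome profiling sorts mRNAs by this load, so a ratio of translated to total mRNA says which share of a message sits in the polysome fractions relative to other messages. CPM are relative within a library, so the ratio gives neither ribosomes per mRNA nor protein made.

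Whole worms were labelled, and of 29 defining genes of neuron, muscle, pharynx, intestine, hypodermis, germ line and sperm, 24 had reads in every library, while the muscle factor gene *hlh-1* was listed at 0 in all 24 libraries. The list of 21 intestine genes summed to 18700 to 19320 CPM in DR and 30190 to 32440 CPM in AL total mRNA, but the yolk genes *vit-2* and *vit-6* held 16410 to 17040 CPM of it in DR and 27860 to 30050 CPM in AL. The other 19 intestine genes summed to 2286 to 2346 CPM in DR and 2287 to 2391 CPM in AL. The 66 muscle genes summed to 9065 to 9263 CPM in DR and 5872 to 6084 CPM in AL total mRNA, and the 69 maternal and germline genes to 24090 to 24780 CPM in DR and 30330 to 31380 CPM in AL. In bulk samples, fewer cells of a type and less RNA per cell cannot be told apart. The part of these shifts in the members' values was not tested. In the DM translated replicate 1 the members summed to 45590 CPM, against 40460 to 41390 CPM in the other 3. Without it the rule found 111 members, 110 of them shared with the 133.

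The members' highest levels per kilobase of exon, averaged over the 24 libraries, belonged to *C17F4.7* with 4132 CPM per kb, *perm-4*, needed for the permeability barrier of the eggshell, with 3976 CPM per kb, *stha-3* with 3078 CPM per kb and *Y37D8A.19* with 2213 CPM per kb. *ttr-2*, a transthyretin-related gene, followed with 1992 CPM per kb, *ule-5* and *ule-4*, named for their expression in the uterine lumen, with 1945 and 1921 CPM per kb, *cpi-1*, a cystatin gene, with 1714 CPM per kb, and *lbp-2*, a lipid-binding protein gene, with 1349 CPM per kb. This order did not hold in every group, since *C17F4.7* had 159 CPM per kb in DR total mRNA, where *perm-4* had 2073 CPM per kb. Together the members held 3.85% ± 0.19 of all reads in DR translated mRNA and 1.13% ± 0.01 in DR total mRNA (SD, n = 4 each). The shares were 4.77% ± 0.20 and 2.14% ± 0.03 in DM translated and total mRNA, and 4.83% ± 0.09 and 2.35% ± 0.07 in AL translated and total mRNA (SD, n = 4 each).

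The next values chose the members and are a description. The members' median log2 ratio was 1.94 in DR, 1.11 in DM and 1.13 in AL, against -0.05, -0.02 and 0.02 over all 8360 genes. It spanned 1.03 to 3.86 in DR, 1.001 to 1.48 in DM and 1.001 to 1.63 in AL, so the members crowded above the limit in DM and AL and spread widely in DR. For 126 of the 133 members the largest of the 3 ratios was the one in DR, for 3 that in DM and for 4 that in AL. Of all genes tested, 1397 (16.7%) reached a log2 ratio of 1 in DR, 356 (4.26%) in DM and 397 (4.75%) in AL, so that members made up 9.52% of the genes that passed in DR, 37.4% in DM and 33.5% in AL. The scaling between pools sets where the limit of 1 falls, and ribosomal RNA took 11.5% to 20.9% of the reads in DR translated libraries and 0.517% to 0.894% in DR total libraries. Relative to the median of all genes tested, the members' median ratio was 1.99 in DR, 1.13 in DM and 1.10 in AL. With every library scaled to its own read total it was 1.98, 1.13 and 1.10. That agreement was fixed in advance, because rescaling adds nearly the same amount to the log2 values of all genes in a library. The same scaling moved the median of all genes by -0.29 in DR, 0.05 in DM and -0.13 in AL. Under that scaling 69 genes passed the rule in all conditions, 61 of them members. In each condition every translated library exceeded every total library for all 133 members, a separation that 40.1% of all genes showed in DR, 38.1% in DM and 41.6% in AL.

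**Figure D1:**
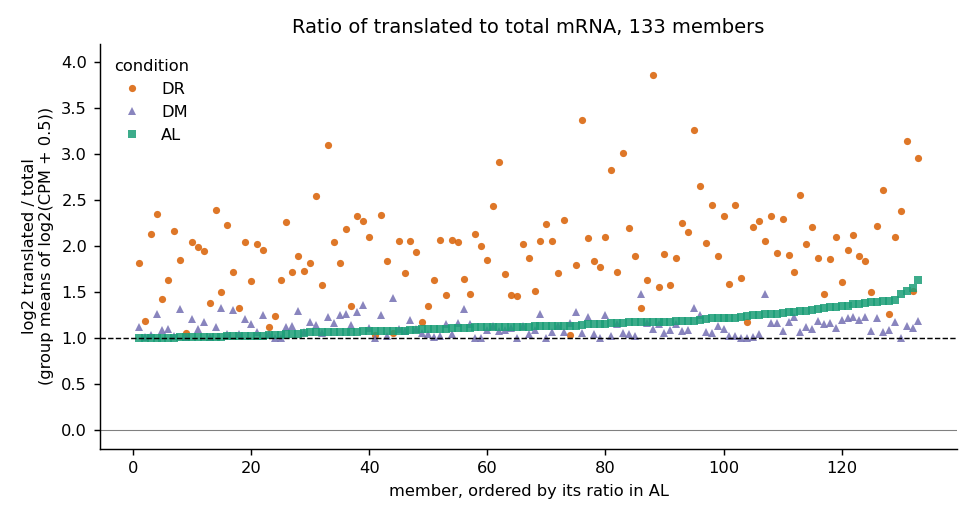
Log2 ratio of translated to total mRNA (vertical axis, from group means of log2(CPM + 0.5), n = 4 libraries a group) for each of the 133 members, ordered by the ratio in AL (horizontal axis), in DR (circles), DM (triangles) and AL (squares); the dashed line is the limit of 1. The DR values reach 3.86 and lie above the other 2 for 126 members, while DM ends at 1.48 and AL at 1.63.

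The limit cut through a dense part of the distribution. Just inside it stood *F41G4.8*, *dhrs-4*, *D2007.1*, *abf-5* and *M28.10*, with smallest ratios of 1.0016, 1.0015, 1.0011, 1.0007 and 1.0006. Just outside stood *Y66D12A.13*, *wrt-5*, *clec-166*, *F59B1.2* and *dhs-3*, with 0.9995, 0.9986, 0.9982, 0.9979 and 0.9964. A further 215 genes passed in DR and AL but not in DM, where their median ratio was 0.81, and 172 passed in DR and DM but not in AL, where it was 0.86. Only 8 passed in DM and AL and missed in DR, with a median of 0.62 there. The smallest of a member's 3 ratios was the one in DM for 77 members, in AL for 54 and in DR for 2.

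The 12 members with the highest smallest ratio were *spex-2*, *nspc-13*, *nspc-14*, *ftn-1*, *K07A1.6*, *nspc-7*, *F55B11.4*, *C08A9.10*, *skr-13*, *K08D8.5*, *F46E10.2* and *nspc-4*. *spex-2* had 39.5, 43.3, 43.5 and 44.5 CPM in DR translated mRNA and 11.2, 9.29, 8.79 and 10.4 CPM in DR total mRNA. It had 8.82, 8.43, 8.06 and 7.40 CPM in DM translated and 2.15, 3.38, 2.67 and 2.37 CPM in DM total mRNA. In AL its values were 7.05, 8.10, 6.59 and 7.21 CPM in translated and 2.75, 2.60, 2.85 and 2.70 CPM in total mRNA. The pools did not overlap in any condition, and its log2 ratios of 2.06 ± 0.08 in DR, 1.48 ± 0.13 in DM and 1.26 ± 0.06 in AL (± SE, n = 4 libraries a pool) rest on low counts in DM and AL. Among the 12, the highest AL ratio of any member, 1.63, belonged to *F46E10.2*, which had 1.19 in DM and 2.96 in DR.

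The 4 members with the narrowest span kept nearly the same ratio in all conditions. *Y94H6A.10* had log2 ratios of 1.06 in DR, 1.01 in DM and 1.01 in AL, *W10G11.3* had 1.03, 1.005 and 1.08, *pqn-88* had 1.12, 1.04 and 1.03, and *C50F7.5* had 1.17, 1.06 and 1.10. At the other end, *Y51F10.7* had a ratio of 3.86 in DR and 1.18 in AL, *C17F4.7* 3.37 in DR and 1.15 in AL, *K08D8.5* 3.26 in DR and 1.19 in AL, and *pud-1.2* 3.10 in DR and 1.07 in AL. The ratio was lower in DR than in AL for 6 members, most of all for *scl-2*, *B0513.4*, *dhrs-4* and *W10G11.3*, with 1.26, 1.03, 1.18 and 1.03 in DR against 1.41, 1.14, 1.24 and 1.08 in AL. Between DM and AL the largest gains were 1.44 in DM against 1.08 in AL for *cnc-10*, a caenacin peptide gene, and 1.32 against 1.01 for *D1086.1*, and the largest losses were 1.01 in DM against 1.48 in AL for *Y25C1A.14* and 1.19 against 1.63 for *F46E10.2*. These differences are built from the values that chose the members and carry no test.

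Members encode short proteins, a property that the rule did not use. Their proteins had a median of 178 residues (quartiles 131 and 237), against 397 residues (quartiles 240 and 614) over the 8224 coding genes tested. Proteins of fewer than 250 residues made up 77.4% of the members and 26.4% of all coding genes tested. At the opposite end of the ratio, the 544 genes with a log2 ratio of -1 or less in every condition had a median of 460.5 residues over the 498 with an annotated protein, and 15.1% of them were under 250 residues. The members' 3′ UTRs were also short, with a median of 65 bases against 157 over all coding genes tested, and their median exon number was 3 against 6. In total mRNA the members' median log2(CPM + 0.5) lay below that of all genes tested in all 12 libraries. It was 4.696 to 4.76 against 5.46 to 5.47 in DR, 5.20 to 5.26 against 5.48 to 5.49 in DM and 5.31 to 5.41 against 5.59 to 5.60 in AL. In every translated library it lay above that of all genes. The rule used the values of both pools and favours this pattern, so it is a description. The median of the mean CPM over all libraries was 66.3 for members and 45.6 for all coding genes tested. Fewer reads fall on a shorter mRNA at equal copy number.

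The share of members peaked in one length class and was not highest for the shortest proteins. Of genes for proteins of 100 to 149 residues, 46 of 566 (8.13%) were members, against 4 of 271 (1.48%) under 100 residues. The share was 4.57% at 150 to 199 residues, 2.53% at 200 to 299, 0.681% at 300 to 499 and 0.138% at 500 to 999, and none of the 761 genes for proteins of 1000 residues or more was a member. Over all coding genes the median ratio also peaked in that class in all conditions, with 0.57 in DR, 0.33 in DM and 0.55 in AL at 100 to 149 residues and -0.32 in DR, -0.17 in DM and -0.16 in AL at 500 to 999 residues. The 3 members of 500 residues or more were *Y69H2.3* with 826, *pqn-75* with 539 and *cyp-37A1*, a cytochrome P450 gene, with 508 residues.

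**Figure D2:**
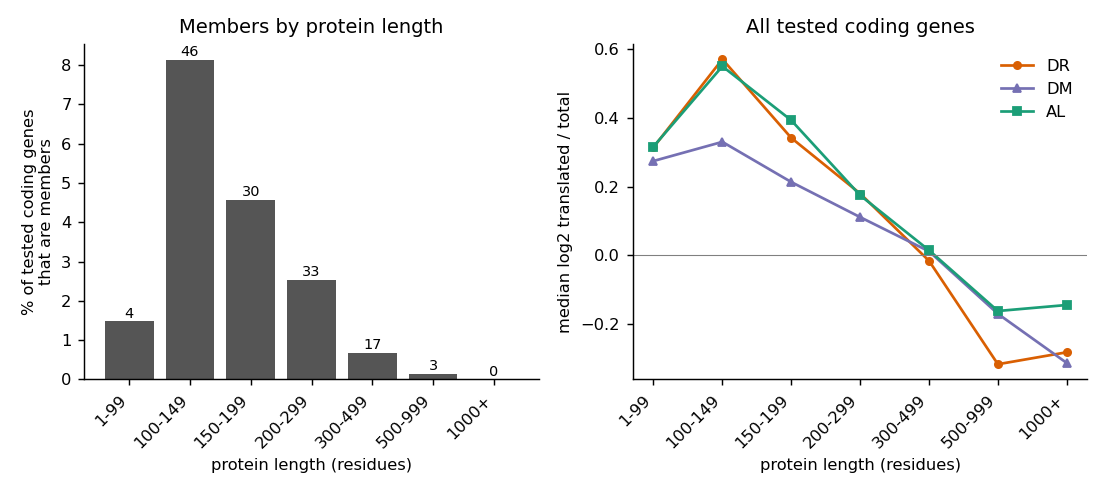
Left, percent of tested coding genes that are members (vertical axis, number of members above each bar) by protein length in residues (horizontal axis); right, median log2 ratio (translated over total) across all tested coding genes of each length in DR, DM and AL. Members peak at 8.13% between 100 and 149 residues, and the median ratio falls below 0 for the longest proteins in all 3 conditions.

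Members also had an uneven place in the genome. Chromosome X carried 33 members (24.8%), against 12.6% of all coding genes tested and 0.40% of the genes with a ratio of -1 or less in every condition. Chromosome I carried 8 (6.02%) against 18.7% of all coding genes tested, and chromosome III 9 (6.77%) against 18.4%. Among the members, 14 had another member as the next coding gene in the WBcel235 annotation, namely the pairs *nspc-3* and *nspc-4*, *nspc-9* and *nspc-10*, *nspc-13* and *nspc-14* and *ttr-35* and *ttr-36* on X, the run *Y62H9A.4*, *stha-3* and *ule-5* on X, and the run *gstk-1*, *ZK1320.2* and *ZK1320.3* on chromosome II. How often tested genes in general neighbour a member was not counted, so this count shows no trait of the members. The exons of 27 members (20.3%) overlapped those of another gene, against 29.8% of all coding genes tested, and reads of overlapping genes cannot be told apart in these unstranded libraries.

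Name families with at least 3 members were *ttr-*, *nspc-*, *nspg-*, *clec-* and *gst-*. The *ttr-* genes encode transthyretin-related proteins, most of them secreted, and 10 of the 37 measured were members: *ttr-2*, *ttr-26*, *ttr-35*, *ttr-36*, *ttr-41*, *ttr-42*, *ttr-44*, *ttr-45*, *ttr-48* and *ttr-54*. Over all 37, the median log2 ratio was 1.53 in DR, 1.15 in DM and 0.93 in AL, and 32 passed it in DR, 27 in DM and 13 in AL. *ttr-2* had 1495, 1474, 1467 and 1440 CPM in DR translated and 314, 299, 306 and 300.4 CPM in DR total mRNA. It had 1731, 1438, 1431 and 1473 CPM in DM translated and 695, 697, 696 and 699 CPM in DM total mRNA, and 1275, 1324, 1270 and 1356 CPM in AL translated and 629.5, 635, 624 and 639.7 CPM in AL total mRNA. The translated values of *ttr-2* all lay between 1270 and 1731 CPM, while its total mRNA in DR stood apart below the other conditions.

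The *nspc-* genes, a nematode-specific peptide family whose members here have 101 or 103 residues, gave 9 members of 13 measured: *nspc-1*, *nspc-3*, *nspc-4*, *nspc-7*, *nspc-9*, *nspc-10*, *nspc-13*, *nspc-14* and *nspc-20*. All 13 reached the limit in DR and in AL, and 9 did in DM. The other 4 had ratios of 0.06 to 0.71 in DM, beside 1.02 to 1.29 in AL. They form a multigene family, and how the authors' counting split reads between its copies is uncertain. Of the *nspg-* family 3 of 9 measured genes were members, of the *clec-* family of C-type lectin genes 3 of 42, and of the *gst-* family of glutathione S-transferase genes 3 of 18.

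**Figure D3:**
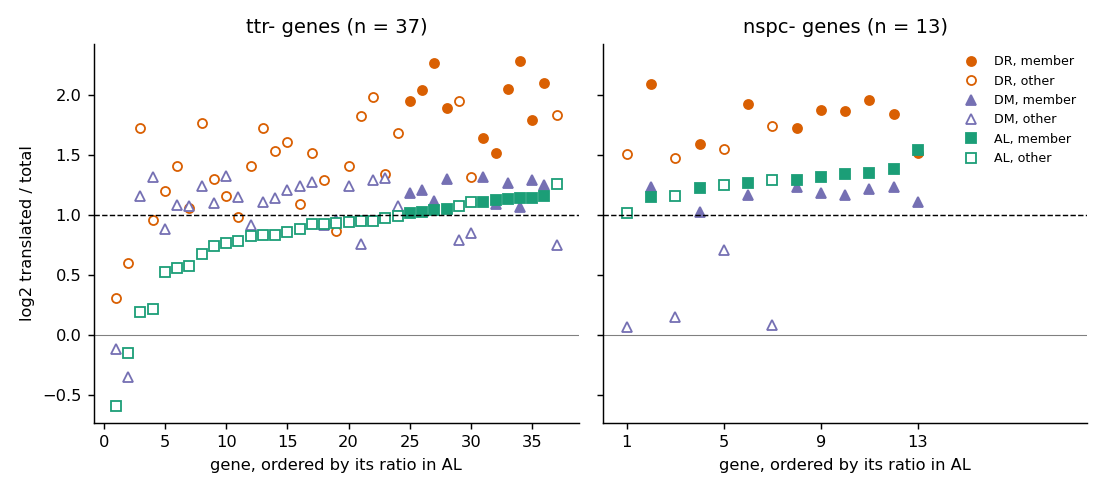
Log2 ratio of translated to total mRNA (vertical axis) for the 37 *ttr-* genes and the 13 *nspc-* genes that were measured, ordered by the ratio in AL (horizontal axis), in DR, DM and AL; filled symbols are members and open symbols the other genes of the family, and the dashed line is the limit of 1. Most *ttr-* genes lie close to the limit in AL, while all 13 *nspc-* genes pass it in AL and DR and 4 miss it in DM.

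Members made up 1.59% of all genes tested, and 39 of the 51 gene lists chosen by function held none, among them the lists of 34 cuticle collagens, 15 astacin and other metalloproteases, 14 hedgehog-related and patched-related genes, 29 UDP-glucuronosyltransferases and 47 genes of amino acid metabolism. Of 51 genes listed as lysozymes and antimicrobials, 5 were members, *lys-8*, *irg-3*, *dod-3*, *cnc-10* and *abf-5*. The list placed *dod-3* there, although *dod-* genes are named for lying downstream of DAF-16. Of 32 intestinal and lysosomal protease genes, 2 were members, *cpl-1*, a cathepsin L, and *try-14*. Of 100 lipid genes, 6 were members, among them *lbp-2* and *far-3*, which bind lipids, *fat-5*, a fatty acid desaturase, and *daf-22*, a peroxisomal thiolase. Of 40 glutathione, redox and detoxification genes, 5 were members, *ftn-1*, a ferritin that stores iron, *sod-4*, an extracellular superoxide dismutase, *gst-4*, *gst-36* and *gst-39*. Of 21 intestine markers 3 were members, *act-5*, the actin of intestinal microvilli, *fat-5* and *ftn-1*. Single members came from 56 neuropeptide genes (*nlp-39*), 116 F-box and related genes (*skr-13*), 20 cytochrome P450 genes (*cyp-37A1*) and 69 maternal and germline genes (*perm-4*). The lists were not complete, so a list without members does not show that no gene of that function was a member. At a share of 1.59%, empty lists of the sizes named here are not unusual, so they show no trait of the members.

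The contrasts between conditions within one pool were not used by the rule, although they come from the same libraries, and a lower total mRNA in DR raises the DR ratio at equal translated mRNA. They were tested with limma on log2(CPM + 0.5) over all 8360 genes, with p-values adjusted by Benjamini-Hochberg, and calls needed an adjusted p below 0.05 together with a 2-fold or larger difference. The DR and DM contrasts with AL share the AL libraries, so their values stand side by side and are not independent.

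In total mRNA, more members were lower than higher under DR. In DR against AL, 54 members (40.6%) were lower and 8 (6.02%) higher, beside 7.87% lower and 3.82% higher of all genes tested. The members' median log2 fold change was -0.53, against -0.06 over all genes tested. Of the 2170 coding genes for proteins under 250 residues, 10.3% were lower and 4.52% higher. The lower members included 5 of the 10 *ttr-* members (*ttr-2*, *ttr-26*, *ttr-35*, *ttr-36* and *ttr-42*) and 2 of the 3 *clec-* members (*clec-62* and *clec-85*). Of all measured genes of these families, 9 of 37 *ttr-* genes and 20 of 42 *clec-* genes were lower. Among the 56 members known only by a sequence name 25 were lower, a share near the 40.6% of all members. None of the 9 *nspc-* members was called lower or higher, and their median was 0.28.

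*C17F4.7* fell most. It had 110.4, 102, 108 and 108 CPM in DR total mRNA, against 2837, 2913, 2790 and 2850 CPM in AL total mRNA, a log2 fold change of -4.73 ± 0.03 (SE, limma adjusted p = 2.4e-46). Among translated mRNA it had 1127, 1112, 1116 and 1083 CPM in DR and 6258, 6428, 6214 and 6312 CPM in AL, a log2 fold change of -2.51 ± 0.03 (limma adjusted p = 1.4e-37). *Y51F10.7* had 15, 14.1, 14.3 and 13.7 CPM in DR total mRNA and 293, 289, 287 and 306 CPM in AL total mRNA. Both genes fell in both pools with no overlap of the groups. They fell by less in translated mRNA, which restates their DR and AL ratios and is no separate result. The log2 fold change of *Y51F10.7* in translated mRNA was -1.63 ± 0.04 (limma adjusted p = 8.4e-30). *F01D5.1*, *K08D8.5* and *F46E10.2* followed in total mRNA with log2 fold changes of -4.28, -3.90 and -3.65.

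Other members that fell in DR total mRNA have known products. *swt-6*, of the SWEET sugar transporter family, had a log2 fold change of -3.41 and *hen-1*, a secreted protein of neurons that acts in sensory integration, one of -3.25. *hen-1* was at 0.511, 1.26, 1.03 and 0.776 CPM in DR total mRNA and 12.1, 13.8, 13.3 and 11.1 CPM in AL total mRNA, so its DR ratio of 2.28 ± 0.19 rests on few reads. *lys-8*, a lysozyme gene, had 189.6, 181, 184 and 184 CPM in DR and 652, 633, 636 and 651 CPM in AL total mRNA, a log2 fold change of -1.80 ± 0.03 (limma adjusted p = 6e-34). The *lys-8* log2 fold change in translated mRNA was -0.32 ± 0.03, short of 2-fold. *lbp-2* had 318, 319.5, 328 and 307 CPM in DR and 751, 759.7, 735 and 712 CPM in AL total mRNA, a log2 fold change of -1.22 ± 0.03 (limma adjusted p = 1.2e-27), and one of -0.18 ± 0.03 in translated mRNA.

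In translated mRNA the members changed in both directions. In DR against AL, 22 members (16.5%) were higher and 18 (13.5%) lower, beside 7.48% higher and 7.87% lower of all genes tested, with a median log2 fold change of 0.08 over the members and -0.09 over all genes. With each library scaled to its read total, 16 were higher and 21 lower. Of coding genes for proteins under 250 residues, 13.2% were higher and 7.47% lower. Of the 54 members lower in total mRNA, 18 were also lower in translated mRNA and 36 were not called there, a split that the rule favours because it requires translated mRNA to stay above total mRNA. All 8 members higher in total mRNA were higher in translated mRNA too, which the rule largely fixes because it requires a ratio of at least 1 in both conditions, and 14 more were higher in translated mRNA alone.

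**Figure D4:**
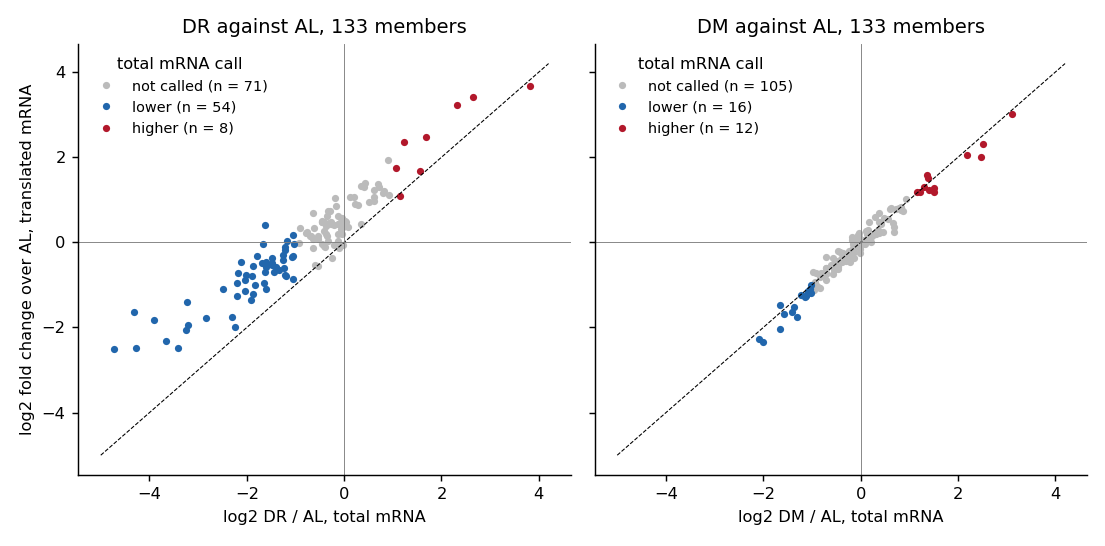
Log2 fold change over AL in translated mRNA (vertical axis) against that in total mRNA (horizontal axis) for the 133 members in DR (left) and DM (right); blue and red mark members called lower and higher in total mRNA, and the dashed line marks equal changes. In DR most points lie above the line and 54 are lower in total mRNA, while in DM the points lie along the line, with 16 lower and 12 higher.

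The 8 members that rose in DR total mRNA were *scl-2*, *ftn-1*, *dod-3*, *spex-2*, *hacd-1*, *pqn-75*, *dhrs-4* and *C15H9.11*. *scl-2*, which encodes an SCP-like extracellular protein, had 235, 229, 231 and 244 CPM in DR and 15.9, 16.8, 17 and 15.2 CPM in AL total mRNA. In translated mRNA it had 565, 574, 565 and 549.7 CPM in DR and 43.9, 44.1, 45.7 and 41.9 CPM in AL. The log2 fold changes of *scl-2* were 3.82 ± 0.05 in total and 3.67 ± 0.05 in translated mRNA (limma adjusted p = 1.1e-39 and 2.4e-38). *ftn-1* had 95, 95.2, 94.5 and 91.4 CPM in DR and 16.4, 14.2, 14.2 and 13.4 CPM in AL total mRNA, and 413, 428, 401 and 403 CPM in DR and 36.7, 40.3, 36.8 and 39.5 CPM in AL translated mRNA. The ferritin message thus rose by a log2 fold change of 2.66 ± 0.05 in total and 3.41 ± 0.05 in translated mRNA (limma adjusted p = 3.3e-32 and 2e-35). *dod-3* rose by 2.32 ± 0.07 and 3.23 ± 0.07 on the log2 scale in total and translated mRNA, and *hacd-1*, a hydroxyacyl-CoA dehydrogenase, by 1.57 in total mRNA.

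Several abundant members differed little or moved apart in the pools under DR. The gap between the fold changes of the pools equals the difference of the DR and AL ratios, which chose the members. *perm-4*, the member with the highest mean CPM, had 8182, 8283, 8608 and 7884 CPM in DR and 6349, 6198, 6237 and 5822 CPM in AL translated mRNA. These translated values did not overlap, and its log2 fold change was 0.42 ± 0.04 in translated and -0.27 ± 0.04 in total mRNA, both short of 2-fold. *act-5* had 696, 719, 740.5 and 686 CPM in DR and 448, 419.9, 446 and 398 CPM in AL translated mRNA, and 148, 145, 147 and 154 CPM in DR and 188, 183, 186 and 192 CPM in AL total mRNA. The microvillar actin was therefore higher in every DR translated library and lower in every DR total library, with log2 fold changes of 0.73 ± 0.04 and -0.33 ± 0.04 (limma adjusted p = 1.1e-19 and 3.5e-10), neither of them 2-fold. *cpl-1* had log2 fold changes of 0.35 ± 0.04 in translated and -0.63 ± 0.04 in total mRNA. Among the peptide genes, *nspc-13* had 246, 246, 246 and 239 CPM in DR and 118, 116, 112 and 118 CPM in AL translated mRNA, a log2 fold change of 1.07 ± 0.05 (limma adjusted p = 5.6e-20), and *nspc-3*, *nspc-10* and *nspc-20* rose with it.

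In the double mutant 28 members were called in total mRNA and 35 in translated mRNA, beside 62 and 40 in DR. In DM against AL total mRNA, 16 members (12.03%) were lower and 12 (9.02%) higher, beside 3.78% lower and 3.3% higher of all genes tested, and the median log2 fold change was -0.17, against -0.13 over all genes. In translated mRNA 22 (16.5%) were lower and 13 (9.77%) higher, beside 6.66% lower and 3.78% higher of all genes tested, with medians of -0.21 and -0.10. Of the 2170 coding genes for proteins under 250 residues, 5.44% were lower and 3.96% higher in DM total mRNA. In DM translated mRNA 10.4% of them were lower and 4.84% higher. At 100 to 149 residues, 15.02% of coding genes were lower and 4.95% higher in DM translated mRNA. The members' balances depended on scaling. It moved the median of all genes in DM against AL translated mRNA by up to 0.32 on the log2 scale. With each library scaled to its read total, 8 members were lower and 20 higher in translated mRNA, and 11 lower and 14 higher in total mRNA. All 16 and all 12 members called in total mRNA were called in the same direction in translated mRNA, which is no result because the rule, with ratios just above 1 in both DM and AL, ties the changes in the pools to each other.

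The members with the largest losses in DM were peptide genes and the neighbouring genes on X. *ule-5* had 279.9, 278, 276 and 273 CPM in DM and 1094, 1121, 1124 and 1122 CPM in AL total mRNA, a log2 fold change of -2.01 ± 0.03 (limma adjusted p = 5.6e-36), and one of -2.35 ± 0.03 in translated mRNA (limma adjusted p = 1.9e-38). Its neighbours on X, *stha-3* and *Y62H9A.4*, had log2 fold changes of -1.65 and -1.56 in total and -2.04 and -1.68 in translated mRNA. *nspc-20* had 6.44, 7.60, 6.71 and 6.04 CPM in DM and 31, 26.4, 32 and 30.5 CPM in AL total mRNA, a log2 fold change of -2.08 ± 0.08 (limma adjusted p = 8.8e-23). Of the 13 *nspc-* genes measured, 8 were lower in DM total and 10 in DM translated mRNA, and of the 9 members 4 and 6. Under DR none of the 13 was lower in either pool, and 4 were higher in total and 8 in translated mRNA. *nspg-6* was lower in DM total mRNA with a log2 fold change of -1.66.

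Of the members that rose in DM, a neuropeptide gene led. *nlp-39*, which encodes a neuropeptide-like precursor, had 141, 141, 142 and 144 CPM in DM and 14.9, 18.4, 13.2 and 18 CPM in AL total mRNA, a log2 fold change of 3.12 ± 0.10 (limma adjusted p = 7.1e-26). In DR total mRNA it had 2.12, 1.42, 2.14 and 1.62 CPM, a log2 fold change of -2.84 ± 0.10 over AL (limma adjusted p = 6.5e-25). Its translated mRNA was at 356, 324, 298 and 306 CPM in DM, at 9.62, 11.3, 11.8 and 11.9 CPM in DR and at 38.7, 38.6, 33.6 and 46.4 CPM in AL. *dod-3*, *Y25C1A.14*, *ftn-1* and *gst-39* were higher in DM than in AL total mRNA by 2.52, 2.48, 2.19 and 1.51 on the log2 scale. *dod-3* and *ftn-1* were thus higher over AL in total mRNA of both DR and DM, as was *scl-2*, with a mean of 46.8 ± 1.46 CPM in DM and 16.2 ± 0.857 CPM in AL total mRNA (SD, n = 4 each).

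**Figure D5:**
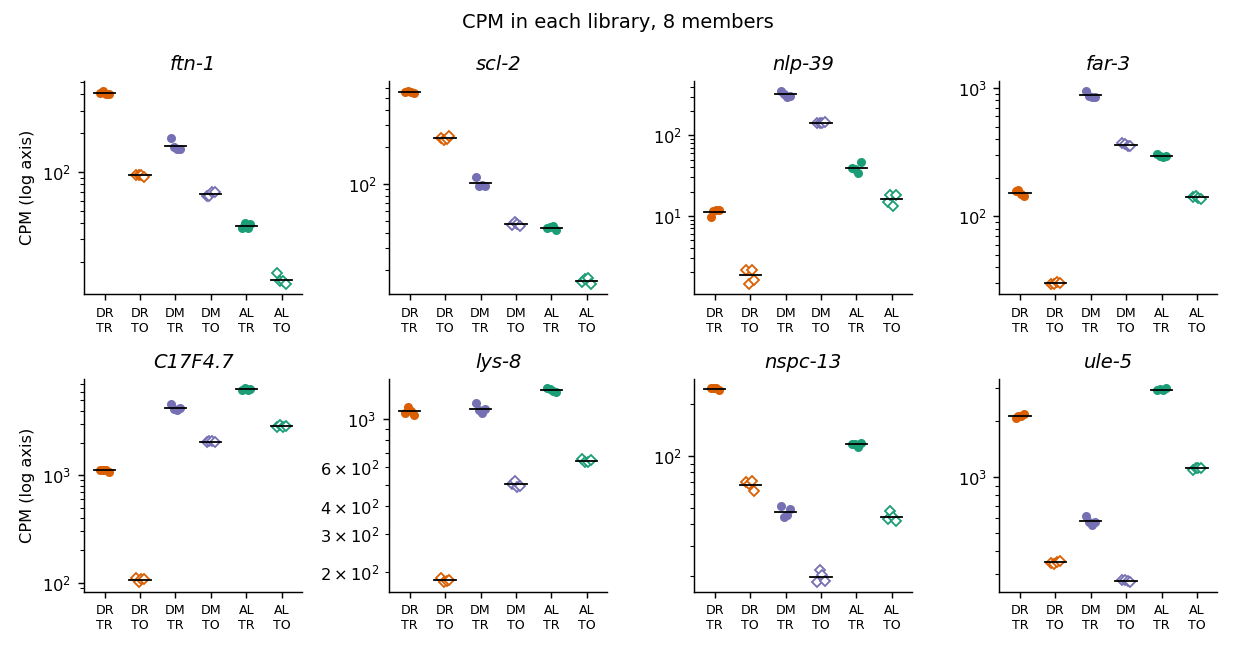
CPM in each of the 24 libraries (points, log axis) for 8 members, by condition and pool (horizontal axis, TR translated in filled circles, TO total in open diamonds), with the mean of 4 libraries as a line. Translated mRNA lies above total mRNA in each condition, *nlp-39* and *far-3* are highest in DM and lowest in DR, *scl-2* and *ftn-1* are highest in DR, and *nspc-13* and *ule-5* are lowest in DM.

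Set directly against DR, the DM total mRNA of 50 members (37.6%) was higher and that of 12 (9.02%) lower, beside 8.39% higher and 5.83% lower of all genes tested. Of coding genes for proteins under 250 residues, 10% were higher and 8.85% lower. The members' median log2 fold change was 0.56, against -0.05 over all genes tested. Of the 50 higher members, 42 were among the 54 called lower in DR against AL total mRNA. Those 54 had a median log2 fold change of -0.20 in DM against AL total mRNA. The contrast uses the same DR total libraries, so in large part it repeats the DR fall. The largest differences of DM over DR were those of *nlp-39*, with a log2 fold change of 5.95 ± 0.10, and of *Y51F10.7*, *F46E10.2*, *F01D5.1* and *C17F4.7*, with 4.68, 4.35, 4.31 and 4.26. In the other direction stood *nspc-20* with -2.88, *scl-2* with -2.32, *nspc-13* with -1.75, *spex-2* with -1.74 and *C15H9.11* with -1.68. No *ttr-* member was lower, and 7 of the 10 were higher in DM. Of all 37 *ttr-* genes measured, 13 were higher and 3 lower. In DR against AL total mRNA, 5 of the 10 *ttr-* members had already been called lower.

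The calls were also counted by chromosome and by protein length. Of the 33 members on X, 9 were lower and 1 higher in DM against AL total mRNA, against 7 lower and 11 higher of the 100 on autosomes. In DR against AL total mRNA, 12 of the 33 and 42 of the 100 were lower. Over all genes tested, 3.78% were lower and 3.3% higher in DM total mRNA, and 7.87% were lower in DR total mRNA. Shares over all tested genes of X and of autosomes were not counted, so these counts show no trait of the members. The 9 *nspc-* members are all on X, and the difference between X and autosomes was not tested. Split by length, 20 of 50 members under 150 residues, 25 of 53 members of 150 to 249 residues and 9 of 30 longer members were lower in DR total mRNA. Of all coding genes tested, 10.6% were lower at 100 to 149 residues, 10.98% at 150 to 199, 9.8% at 200 to 299 and 8.41% at 300 to 499.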

How the data were processed

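Total and translated mRNA of 24 whole-worm samples in 6 groups of 4 were analysed, grouped by the strain, diet and fraction in the labels. Food densities are those of the labels, while the study's methods print 1 density for both diets. The authors aligned unstranded reads with TopHat to WS220 (Ensembl 66), counted them per gene with HTSeq 0.6.1 and used edgeR 3.0 for normalization. Signal values as deposited are CPM that the authors divided by a composition factor, so columns sum to 864992 to 1237732. They passed as whole multiples of 1 read for 100% of values. The tolerance was 0.05 reads at low counts and grew with the count. At the highest counts it passes any value, so the check decides nothing there. Recovered counts were used only in an alternative. Names, lengths and neighbours come from WBcel235 (Ensembl 115), which matched 8303 of 8360 rows. The design had assumed plain CPM, and the same test was kept.

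The members were found on group means of log2(CPM + 0.5) after a minimum mean of 8 CPM. Contrasts between conditions used limma 3.58.1 (R 4.3.3) with a trend over all 24 libraries and Benjamini-Hochberg adjustment over 8360 rows. On simulated data, the limma and edgeR (4.0.16) steps found 100% of 200 genes changed 4-fold. The changes were placed in DR against AL total and DM against AL translated mRNA. DR against AL translated mRNA was simulated without changes, and the other contrasts were not looked at. Changes near the 2-fold limit were not simulated. Alternatives were the pseudocount, filter, scaling, threshold, coding genes only, edgeR's quasi-likelihood test on recovered counts, only the groups compared, a replicate block and leaving out each library. Counting error alone bounds low values, at 7960544 to 15658505 reads per library.

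Members and lists were chosen with earlier results of these data known. Named genes are the 12 with the highest smallest ratio, 5 on each side of the limit, the 5 largest called changes without overlap in each direction and contrast, the 8 with most reads, up to 5 of each list, and the 4 at each end of the changes and the 4 with the smallest span in ratio. Family members, *hen-1* values and other genes outside that rule were named after their values were seen. No deposited sequence was printed.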

Additional observations from a re-analysis of the deposited data

Results flagged for a closer look

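For 4 members, total mRNA was called lower in DR and higher in DM, each against AL. How many of all genes tested had such opposite calls was not counted. The direct contrast of DM with DR equals the difference of those changes. Its size therefore follows from how these members were picked and is no separate test. The log2 fold change of DM over DR was 5.95 for *nlp-39*, 3.58 for *far-3*, 2.51 for *cdr-2* and 2.47 for *cpi-1*. *far-3*, a fatty acid and retinol binding protein gene, had 369.6, 365, 355 and 355 CPM in DM and 29.3, 29.5, 30.4 and 30.1 CPM in DR total mRNA, beside 141, 143, 139.8 and 136 CPM in AL. *cpi-1*, a cystatin that inhibits cysteine proteases, had 1061, 1065, 1066 and 1030 CPM in DM and 202, 183, 192 and 186 CPM in DR total mRNA, beside 406, 399.7, 395 and 391 CPM in AL.

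Values of 1 library lay far from the other 3 of its group in 9 of 126 groups looked at, and chance gives about 1 in 20. The DM translated replicate 1 was the high one for 5 genes, with 183 CPM of *ftn-1*, 113 CPM of *scl-2*, 4640 CPM of *C17F4.7*, 1730 CPM of *ttr-2* and 954 CPM of *far-3*. Without that library, 12 members were higher and 22 lower in DM against AL translated mRNA, against 13 and 22 with it. The other 4 were 1090 CPM of *ule-5* in AL total replicate 1, 239 CPM of *nspc-13* in DR translated replicate 4, 1030 CPM of *cpi-1* in DM total replicate 4, and the share of reads on members in DM total replicate 3, at 2.18%.

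Below the filter of 8 CPM, 4 further coding genes met the ratio in every condition. Their smallest log2 ratios were 1.23 for *F14F9.6*, 1.16 for *C55A1.6*, 1.08 for *F53A9.9* and 1.02 for *C24B5.4*.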

How the results depend on the processing

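The number of members moved with scaling and threshold: 69 with each library scaled to its read total (61 shared with the 133), 267 with median-ratio size factors (all 133 among them), 91 with each scaled to its coding reads, added after seeing the data (68 shared), and 0 at a log2 threshold of 1.5. It was 156 and 112 with pseudocounts of 0.1 and 1 CPM, and 111 to 144 without 1 library. In DM against AL translated mRNA, 20 members were higher under the scalings to read total and to coding reads, and 8 lower under both, by construction of the library size. Every other count stayed within 1.5 times its value; edgeR on the recovered counts called 54 members lower and 8 higher in DR total, 18 and 24 in DR translated, 11 and 14 in DM total and 16 and 13 in DM translated mRNA. Without 1 library, the lower members numbered 52 to 54 in DR total, 18 to 19 in DR translated, 16 to 17 in DM total and 21 to 22 in DM translated mRNA, and 12 to 13 in DM against DR, and the higher ones 8, 21 to 23, 12, 12 to 13 and 50. In 900 checks of named changes under the alternatives, none was marked as moved. Of the checks of ratios, 50 were marked as moved and 1138 as the same. Calls near 2-fold still depend on scaling. With each library scaled to its read total, the median of all genes in DR against AL translated mRNA moved by -0.11. There 16 members were higher, against 22 in the main setting. *nspc-13* and *nspc-3*, with log2 fold changes of 1.07 and 1.05 in the main setting, stand that close to the limit. Replicate numbers did not pair the samples (correlations of same-numbered deviations from -0.274 to 0.108), and a replicate block left every count as it was, for instance 54 lower members in DR total mRNA. Genes near the minimum of 8 CPM rest on few reads in the pool where they are low.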
